A study of Mus musculus with 3 samples.

Results

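HBO1 peaks that lay between genes, 1 to 10 kb from the nearest transcription start site (TSS), were examined in Oct1 deficient mouse embryonic stem cells (ESCs). A peak was a member when its summit fell outside every gene body of the GENCODE vM21 annotation and its nearest edge was over 1000 and at most 10000 bp from the nearest TSS of any transcript. Of the 13823 peaks in the deposited list, 1193 on chromosomes 1 to 19 met this rule. For comparison, 5368 peaks lay within 1 kb of a TSS, 3820 lay in a gene body over 1 kb from a TSS, 1616 lay between genes at 10 to 50 kb and 640 lay between genes at over 50 kb. The 751 peaks with summits on chromosome 3 between 100 and 141 Mb were left out.

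The study performed ChIP-seq against HBO1 in 2 samples and sequenced 1 input sample, which is sheared chromatin that was not immunoprecipitated. All 3 samples came from the same Oct1 deficient ESC background, in which the gene of the POU factor Oct1 is disrupted, so no wild-type control was compared. The cells were grown with 3 µM CHIR99021, an inhibitor of GSK3, and 1 µM of a MEK inhibitor that the labels spell PD03259010, and were crosslinked with 1% formaldehyde. For the second ChIP sample the antibody is given as HBO2 in one label and as HBO1 in the title, which was followed. Both ChIP samples were taken to share the only peak list deposited, so there was no spread between replicates. The input comprised 31973678 aligned read ends, and ChIP reads were not analysed here. No p-value was computed, and the 95% intervals given below cover counting error only.

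HBO1, also called Kat7, is an acetyltransferase of the MYST family that modifies lysines of histones H3 and H4. It works in complexes with scaffold proteins of the Jade or Brpf families and with the small subunits Ing4 or Ing5 and Meaf6. Sequence between genes holds enhancers, which are bound by transcription factors and act on genes at a distance, and it also holds the remains of transposable elements in many near-identical copies. In ESCs, Oct4 binds enhancers through an octamer, through a composite site shared with Sox2, or as a dimer through a MORE, a palindrome made of repeated POU core sites.

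Many members shared sequence with other members. Members were linked when the 300 bases around their summits shared at least 20 words of 20 bases, on either strand. A family is a set of members joined by such links, so its members need not all share words with each other. Of the 1193 members, 458 (38.4%, 95% confidence interval 35.6 to 41.2%) belonged to 53 families, and 9 families had at least 10 members. Families were sought among members alone, so there is no such share for windows or other peaks to set beside this one. The share also depends on the number of members searched, and its interval takes members as independent although they define each other's families. The 200 bases around the summits of members of the 5 largest families are shown, with 2 members each for families 1 and 2. Each stands for a set of members linked by shared words. They are members with the highest fold enrichment among those with the word in capitals in these 200 bases. Within 300 bases, 39 of the 66 members of family 1 and 58 of the 61 of family 2 held it. The counts were 50 of 56 in family 3, 18 of 42 in family 4 and 22 of 38 in family 5. Sequences are 5′ to 3′ from GRCm38, the assembly that mm10 names, and capitals mark the 20-base word that the most members of the family shared.
Family 1, near Dld, chr12:31358292-31358491, minus strand: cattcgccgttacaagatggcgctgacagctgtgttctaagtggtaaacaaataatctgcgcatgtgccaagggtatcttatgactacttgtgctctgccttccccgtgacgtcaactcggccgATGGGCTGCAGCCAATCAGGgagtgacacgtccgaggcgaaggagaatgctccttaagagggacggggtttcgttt
Family 1, near Gm24925, chr16:50914720-50914919, plus strand: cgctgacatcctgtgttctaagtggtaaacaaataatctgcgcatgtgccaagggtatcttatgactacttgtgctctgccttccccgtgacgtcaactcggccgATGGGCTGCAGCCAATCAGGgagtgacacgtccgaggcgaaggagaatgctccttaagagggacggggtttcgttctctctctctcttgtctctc
Family 2, near Gm5478, chr15:101655955-101656154, minus strand: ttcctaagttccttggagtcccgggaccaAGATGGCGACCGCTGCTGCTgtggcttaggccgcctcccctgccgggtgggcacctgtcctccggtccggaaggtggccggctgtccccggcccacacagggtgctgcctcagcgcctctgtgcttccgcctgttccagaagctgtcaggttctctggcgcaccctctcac
Family 2, near Serpinb5, chr1:106855110-106855309, plus strand: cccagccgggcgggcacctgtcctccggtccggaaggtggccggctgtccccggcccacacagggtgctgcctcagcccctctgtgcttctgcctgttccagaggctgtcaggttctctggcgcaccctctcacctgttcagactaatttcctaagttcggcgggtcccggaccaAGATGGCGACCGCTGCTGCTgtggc
Family 3, near Olfr1008, chr2:85695618-85695817, plus strand: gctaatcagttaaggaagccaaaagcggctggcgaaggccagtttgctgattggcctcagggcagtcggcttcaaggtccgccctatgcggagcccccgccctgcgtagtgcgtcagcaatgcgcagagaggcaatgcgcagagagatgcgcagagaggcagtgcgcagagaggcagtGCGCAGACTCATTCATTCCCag
Family 4, near Gm23012, chr13:75698916-75699115, minus strand: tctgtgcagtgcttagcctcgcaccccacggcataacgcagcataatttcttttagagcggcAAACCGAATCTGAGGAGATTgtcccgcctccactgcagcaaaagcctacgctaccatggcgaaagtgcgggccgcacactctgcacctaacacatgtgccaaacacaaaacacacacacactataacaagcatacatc
Family 5, near Snx5, chr2:144248035-144248234, minus strand: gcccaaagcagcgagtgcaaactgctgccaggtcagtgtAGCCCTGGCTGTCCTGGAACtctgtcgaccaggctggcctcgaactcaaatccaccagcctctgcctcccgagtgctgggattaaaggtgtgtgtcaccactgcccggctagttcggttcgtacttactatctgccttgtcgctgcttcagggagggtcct

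Some members lay beside single genes of the pluripotency network or were the most enriched of all. The 151 bases around the summits of 7 such members are shown on the plus strand. These have some of the highest fold enrichments or lie near well known genes. Capitals mark a match to one of 15 motifs that were searched, CTTTGAT of the Wnt effectors Tcf and Lef near Lin28a and the E-box CACGTG near Nodal, and the other 5 held no match in these bases. The member at Hnrnpa3, ranked 4 by fold enrichment, is not shown and held Tcf/Lef letters in its 151 bases, as ATCAAAG on the plus strand. It was in no family, and 56.7% of the letters around its summit were masked. Its bases hold gaccaggctgg, ctcgaactca and agtgctgggat, as does the family 5 sequence near Snx5 shown above. That sequence has attaaag in place of ATCAAAG. The Tcf/Lef letters at Hnrnpa3 thus lie in sequence that resembles family 5. The members at Vmn2r-ps15 and Zfp986 came from 1 cluster on chromosome 4. Both were in no family, yet both hold tttgcggaacctgaaaacttcc in the bases shown, so members in no family can still share sequence.
Nanog, chr6:122705770-122705920: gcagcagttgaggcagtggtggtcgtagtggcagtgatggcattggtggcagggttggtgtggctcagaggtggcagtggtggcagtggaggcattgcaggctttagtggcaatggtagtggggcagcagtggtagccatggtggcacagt
Klf2, chr8:72324510-72324660: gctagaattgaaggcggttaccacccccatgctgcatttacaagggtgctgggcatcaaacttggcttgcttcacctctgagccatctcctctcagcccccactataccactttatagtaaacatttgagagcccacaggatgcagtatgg
Lin28a, chr4:134023920-134024070: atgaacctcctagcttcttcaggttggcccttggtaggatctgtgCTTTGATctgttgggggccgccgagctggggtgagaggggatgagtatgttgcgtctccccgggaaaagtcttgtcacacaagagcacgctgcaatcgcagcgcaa
Nodal, chr10:61426353-61426503: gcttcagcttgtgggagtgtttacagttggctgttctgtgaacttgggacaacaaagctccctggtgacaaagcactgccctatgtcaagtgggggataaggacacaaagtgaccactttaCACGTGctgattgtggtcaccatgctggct
Vmn2r-ps15, chr4:145781604-145781754: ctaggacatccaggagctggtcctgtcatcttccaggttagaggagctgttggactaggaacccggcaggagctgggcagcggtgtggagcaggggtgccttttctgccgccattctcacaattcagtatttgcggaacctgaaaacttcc
Zfp986, chr4:145864135-145864285: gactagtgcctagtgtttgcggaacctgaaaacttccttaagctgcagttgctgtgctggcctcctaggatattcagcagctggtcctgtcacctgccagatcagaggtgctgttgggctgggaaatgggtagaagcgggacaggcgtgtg
Malat1, chr19:5794906-5795056: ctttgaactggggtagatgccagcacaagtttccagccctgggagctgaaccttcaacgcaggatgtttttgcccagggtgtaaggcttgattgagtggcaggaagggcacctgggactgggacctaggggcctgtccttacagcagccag

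Members were narrow and moderately enriched. Their median width was 340 bp, with a range from 276 to 1407 bp. The fold enrichment that the authors' peak caller gave at the summit, a ratio of ChIP signal over local background, had a median of 4.79 (95% interval 4.64 to 4.84) and ran from 1.42 to 17.5. The quartiles were 3.66 and 5.74. Whether the input served as the control for that background is not given in the sources used here. In all, 8 members reached 10 and 25 were under 2. The median −log10 q was 6.55. Values of 10 or more occurred in 220 members, or 18.4% (16.3 to 20.8%), against 25.2% of all deposited peaks. The members were thus below the list as a whole, in which peaks within 1 kb of a TSS reached 33.7%. Other distal peaks were also below it, with 15.5% (14.4 to 16.7%) in gene bodies and 19.4% (17.5 to 21.4%) between genes at 10 to 50 kb. At over 50 kb the share was 24.4% (21.1 to 27.9%).

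The fold enrichment of members differed from that of peaks at TSSs and was close to that of other distal peaks. Its median was 2.68 (2.65 to 2.71) within 1 kb of a TSS, 4.71 (4.64 to 4.80) in gene bodies, 4.61 (4.52 to 4.75) between genes at 10 to 50 kb and 4.12 (3.8 to 4.39) at over 50 kb. Input moved with these values. The 1 kb around member summits held a median of 9 input read ends (9 to 10), against 80 at TSS peaks and 3 in all windows of the same kind of sequence. Among members with 0 to 4 input read ends the median fold enrichment was 5.55, and among the 164 members with 40 or more it was 2.46 (2.32 to 2.56). Peaks at TSSs had medians of 5.55 and 2.46 in the same input classes, the higher of which has no upper limit. The part of input depth in the difference between classes was not tested.

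**Figure D1:**
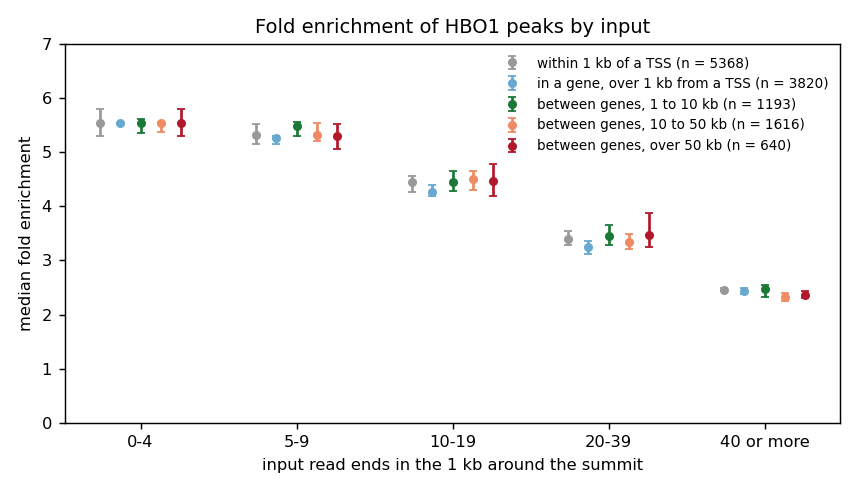
Median fold enrichment (vertical axis, ratio) of HBO1 peaks by input read ends in a window of 1 kb centred on the summit (horizontal axis), with points for 5 classes of peak and bars for 95% intervals of the median. The members, in green, fell from 5.55 at 0 to 4 read ends to 2.46 at 40 or more, and the other classes lay close to them in every input class.

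Many members carried exactly the same pair of values. The 1193 members had 693 distinct pairs of fold enrichment and −log10 q, and 659 members shared their pair with another member. The commonest pair, a fold enrichment of 5.55 with a −log10 q of 6.13, belonged to 27 members, whose median input was 4 read ends and whose highest was 7. A further 25 members had 5.05 with 4.54. The cause of these repeated values was not tested, and members with the same pair cannot be ranked.

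Members were not concentrated toward the TSS within their range. Relative to the bases available between genes, there were 2.71 summits per Mb (2.21 to 3.28) at 1 to 2 kb from the nearest TSS, 3.73 (3.14 to 4.39) at 2 to 3 kb, 4.37 (3.93 to 4.85) at 5 to 7.5 kb and 4.46 (3.98 to 4.98) at 7.5 to 10 kb. The density at 1 to 2 kb was 0.614 times that at 5 to 10 kb (0.5 to 0.754). Part of this lies in the rule, since a summit just past 1 kb often has an edge within 1 kb and is then no member. With distances taken from the summit the ratio was 0.742 (0.614 to 0.897). The median distance of the member edge to the TSS was 5533 bp.

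**Figure D2:**
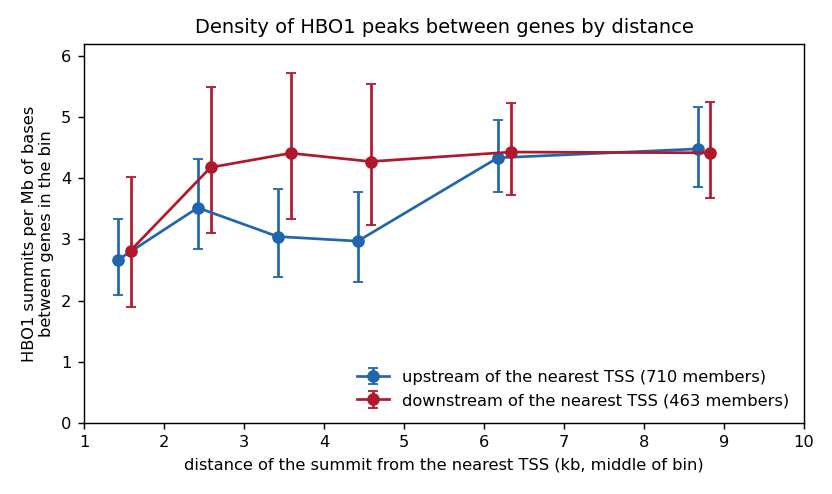
HBO1 summits per Mb of sequence between genes (vertical axis) by distance of the summit from the nearest TSS (horizontal axis, kb), upstream in blue and downstream in red, with 95% Poisson intervals for 1173 members. The other 20 members have summits past 10 kb and are not drawn, and the upstream density rises from 2.67 at 1 to 2 kb to 4.48 at 7.5 to 10 kb.

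The share of members upstream was close to that of the sequence available there, and whether it was lower depended on the peaks and genes counted. Upstream of the nearest TSS lay 721 members, or 60.4% (57.6 to 63.2%), and downstream, past the end of the gene that the TSS belongs to, lay 472. Of all bases of this class, 63.7% were upstream, just above the interval for members. The interval held 63.7% with distance taken from the summit (58.3 to 63.9%), with a −log10 q of at least 5 (57.1 to 63.7%) or 10 (51.4 to 64.8%), and without high input (57.2 to 64.7%). The densities were 3.75 per Mb upstream and 4.31 per Mb downstream. With coding genes alone 72.0% (68.5 to 75.4%) of the members and 81.4% of the bases lay upstream, at densities of 4.34 and 7.38 per Mb. With all transcripts, at 3 to 4 kb they were 3.05 (2.39 to 3.83) and 4.41 (3.34 to 5.72) per Mb, and at 7.5 to 10 kb they were 4.48 and 4.42 per Mb. Fold enrichment was the same on both sides within its interval, with medians of 4.78 and 4.80.

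The nearest gene was often not a coding gene. A protein-coding gene was nearest to 499 members, or 41.8% (39 to 44.7%), against 36.7% of all 300-base windows of this class. Pseudogenes were nearest to 343 members (28.8%, 26.2 to 31.4%, against 34.1% of windows), and 257 of these were processed pseudogenes, which are inserted copies of spliced RNAs. Long intergenic RNAs were nearest to 156 members (13.1%, against 12.5% of windows) and small RNAs to 103 (8.63%, against 9.75%). Median fold enrichment was 4.81 beside coding genes and 4.61 beside pseudogenes, with overlapping intervals.

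Whether a member stood with an HBO1 peak at the neighbouring start depended on the starts counted. The nearest TSS had its own peak within 1 kb for 169 members, or 14.2% (12.2 to 16.3%). This was 24.2% (20.6 to 28.3%) where that TSS belonged to a coding gene and 6.92% (5.14 to 9.07%) where it did not. With coding genes alone as the annotation, which gave 683 members, the share was 32.7% (29.1 to 36.3%), and for the 528 members with a coding TSS within 10 kb, that TSS had a peak in 28.4% (24.6 to 32.5%). Over all 20722 coding genes of chromosomes 1 to 19, 21.6% had a peak within 1 kb of a coding TSS. This counts a gene with a peak at any of its coding starts, whereas the shares of members count 1 start alone, so the measures are unlike. Members with a peak at the nearby TSS had a median fold enrichment of 4.93 (4.80 to 5.22), and those without had 4.73 (4.6 to 4.81). The gap to the next peak of any class had a median of 23069 bp, and 112 members (9.39%) had another peak within 1 kb.

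Members were richer in GC than the sequence between genes around them. The 300 bases around the summits had a median GC content of 54.7% (54.7 to 55%), against 42.3% in 1006677 windows that tile the same class of sequence. A GC content of 50% or more was found for 1146 members (96.1%) and for 13.1% of windows. There were 0.223 members per 10000 windows at 40 to 45% GC, 1.71 at 45 to 50%, 54.2 at 50 to 55%, 189 at 55 to 60% and 626 (487 to 789) at over 65%. The other distal classes had like medians, 55.3% in gene bodies and 55.3% at 10 to 50 kb, and TSS peaks had 69.3%. CpG dinucleotides numbered 7 per member at the median and 2 per window. In the input, windows also gained read ends with GC content, from a median of 3 at 40 to 45% to 77 at over 65%, and the part of this in the GC content of members was not tested.

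**Figure D3:**
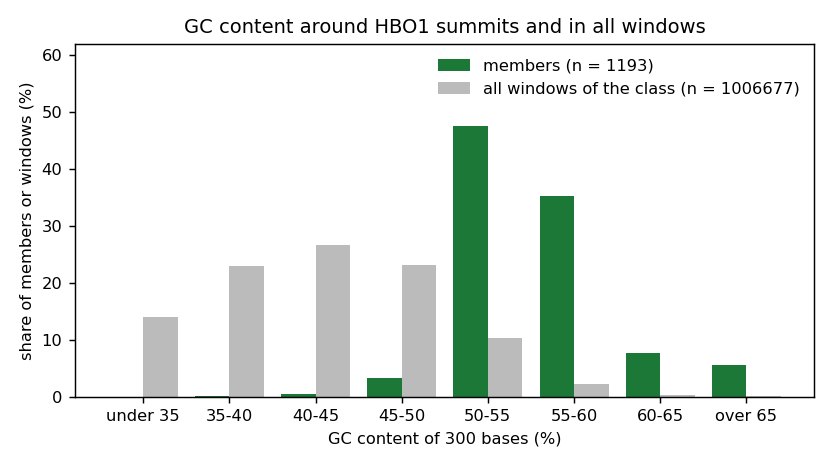
Share of members (green) and of all 300-base windows between genes 1 to 10 kb from a TSS (grey) in each class of GC content (horizontal axis, %). Members are nearly absent under 45% GC, where most windows lie, and 47.5% of them are in the class of 50 to 55% GC.

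Masked sequence, the lower-case letters with which RefSeq marks repeats, took all 300 bases for 299 members (25.1%, 22.6 to 27.6%) and for 9.31% of windows. No masked base was present in 206 members (17.3%, 15.2 to 19.5%, against 11.3% of windows), so both ends of the scale were fuller than in the windows while the medians were alike at 28.7% and 29.0%. The fully masked share rose with distance from genes, from 1.32% of peaks at TSSs to 37.6% at 10 to 50 kb and 61.9% at over 50 kb. Fully masked members had a median fold enrichment of 3.88 (3.64 to 4.17), below the 4.78 (4.56 to 4.94) of unmasked ones. Their median input was 19 read ends, against 9. Their nearest TSS had its own peak in 5.35% of cases, against 22.3%.

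The families differed in enrichment, composition and copy number. Family 1, with 66 members on 18 chromosomes, had a median fold enrichment of 5.43 (4.79 to 5.80) and a GC content of 52.0%. Family 2, with 61 members, had 2.25 (2.10 to 2.33) at a GC content of 65.3%, and a median of 95 input read ends against 9 in family 1. The ranges overlapped, since the highest member of family 2 reached 4.12 and the lowest of family 1 had 2.45. Family 3 (56 members) had a median of 3.07 (2.76 to 3.59), family 4 (42 members) had 5.33, family 5 (38 members) had 5.75 (5.15 to 6.53), and family 6 (30 members) had 4.57. Families 7 and 8, with 12 and 10 members, had 6.08 and 5.88. Family 9, with 10 members, had 2.37 at a GC content of 66.8% and a median of 106 input read ends. Families 2 and 9, the lowest, were thus those with the most GC and the most input. Family 3, the next lowest, had a median of 33.5 input read ends against 16 in family 6. Its GC content of 55.8% was below the 57.2% of family 6.

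**Figure D4:**
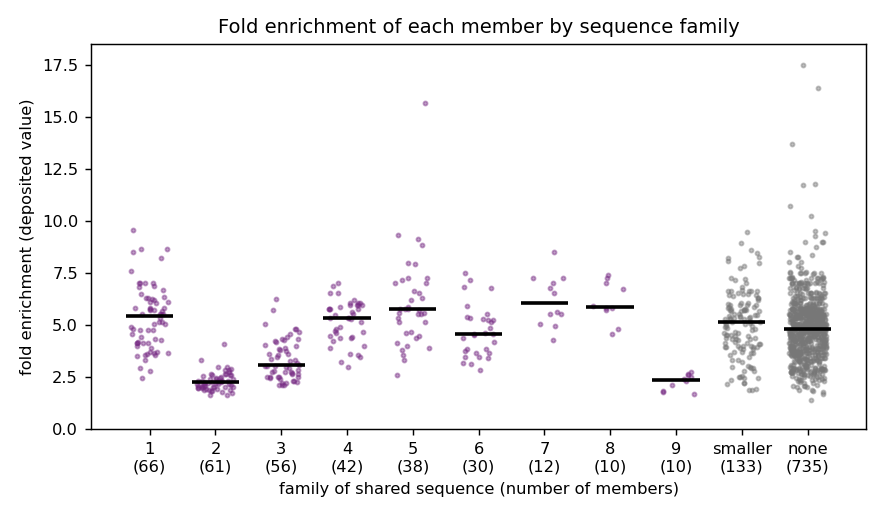
Fold enrichment of every member (points, vertical axis) in the 9 families with at least 10 members, in smaller families and in none, with the number of members in parentheses and a black line at the median. Families 2 and 9 lie lowest, with medians of 2.25 and 2.37, and members in no family have a median of 4.81.

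The shared words occurred far more often in the genome than in peaks. The word of family 2 had 6906 exact copies on chromosomes 1 to 19, of which 982 (14.2%) lay in a deposited peak. Within the bases between genes at 1 to 10 kb, 119 of 771 copies did so (15.4%, 13 to 18.2%). For family 3 this was 48 of 205 (23.4%, 17.8 to 29.8%), for family 4 it was 17 of 112 (15.2%), for family 6 it was 24 of 204 (11.8%), and for family 1 it was 53 of 1010 (5.25%, 3.96 to 6.81%). Family 5 was unlike these, since its word had 60716 copies and only 0.227% (0.147 to 0.335%) of the 11010 copies in this class of sequence were in a peak. Its members were also the least masked, with a median of 62.2% against 92% or more in the other 8 families, and none was fully masked. Family 5 held the member at Snx5 with a fold enrichment of 15.7, the highest of any family. The shares of copies in peaks count copies and not peaks. For family 2, 119 copies in this class of sequence lay in a peak, while the word stood around 58 member summits. Copies in the same peak are not independent, so the intervals of these shares may be too narrow.

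Reads from repeated sequence are hard to place, and the deposited input shows how far. Around members in a family, 31.3% of input read ends had a mapping quality of at least 20, against 82.7% around members in no family and 81.8% over all windows of the class. The share was 20.9% in family 2, 15.4% in family 3 and 93.9% in family 5. These shares pool read ends, so members with much input weigh most. Per member or window with any input read end, the median share was 100% over all members and over all windows. How the peak caller treated reads with several possible positions is not given in the sources used here, so the count of peaks within a family is uncertain. The 735 members in no family had a median fold enrichment of 4.81 (4.76 to 4.94), a GC content of 55% and a median of 8 input read ends, which are close to the values over all members.

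Motif letters were searched on both strands in the 300 bases around each summit, and shares are given beside those of all windows and of windows with 50 to 60% GC. In that range 567 members lay at 50 to 55% and 422 at 55 to 60%, against 104636 and 22359 windows. GC content was therefore not fully matched within it, and the part of this in the shares was not tested. AAGATGGCG, the core of the sites of the zinc finger protein Yy1, stood in 110 members, or 9.22% (7.64 to 11%), against 0.316% of all windows. At 50 to 60% GC the shares were 4.35% (3.16 to 5.81%) of members and 0.967% of windows. Its share was 2.29% at TSS peaks, 15.4% at 10 to 50 kb and 26.1% (22.7 to 29.7%) at over 50 kb. Of the 110 members, 101 belonged to a family. Family 2 gave 55 of its 61 members, family 1 gave 30 of 66 and family 9 gave all 10, and the letters can be read in lower case in the Dld copy of family 1 and across the start of the capitals in both copies of family 2. Among members in no family the share was 1.22% (0.561 to 2.31%). That interval holds the share of windows with 50 to 60% GC and lies above that of all windows. Among members with under 50% masked letters the share was 0.583% (0.159 to 1.49%), against 0.113% of such windows. The letters lay a median of 69 bp from the summit, and 85 of the 110 members were fully masked. Members with the letters had a median fold enrichment of 2.62 and 59.5 input read ends, and those without had 4.84 and 9.

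The octamer ATGCAAAT was rare in members and in the other classes of peak. Its share was 0.205% within 1 kb of a TSS, 0.707% in gene bodies, 0.433% between genes at 10 to 50 kb and 0.156% at over 50 kb. The octamer stood in 4 members, or 0.335% (0.0914 to 0.856%), against 2.57% of all windows and 0.846% of windows with 50 to 60% GC. Within that range of GC content, members had it in 0.404% (0.110 to 1.03%), an interval that holds the share of windows. With coding genes alone the share was 0.878% (0.323 to 1.90%), and among the 220 members with a −log10 q of 10 or more it was 0%, where 0 allows up to 1.36%. Among members with an octamer, named after their values had been seen, the one 9056 bp from Ephb2 had a fold enrichment of 4.81. The one 1313 bp from Gm11971, with H2afv as its nearest coding gene at 7043 bp, had 5.86. The one 9421 bp from Gm48136, with Gm10139 as its nearest coding gene at 42807 bp, had 3.99. No member held a MORE, searched as 2 copies of the POU core ATGCAT with 1 mismatch, or the Oct:Sox composite. They stood in 0.321% and 0.0665% of all windows, and 0 of 1193 members allows a share of up to 0.251%. A difference from the windows was therefore not detectable for the composite, nor for the MORE at 50 to 60% GC, where 0.145% of windows and 0 of 989 members held it, which allows up to 0.303%.

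The other motifs differed from all windows in both directions. Limiting GC content to 50 to 60%, which does not match it fully, changed most of these differences. The E-box CACGTG, bound by Myc and related factors, stood in 6.04% of members (4.75 to 7.54%) against 2.95% of windows. At 50 to 60% GC the shares were 5.87% (4.48 to 7.52%) of members and 4.63% of windows, which that interval holds. In members in no family the E-box share was 7.89% (6.05 to 10.1%). The Klf letters GGGNGTGGC stood in 3.69% (2.69 to 4.92%) against 1.21% of windows. At 50 to 60% GC they stood in 3.84% (2.73 to 5.24%) against 3.15%, also within the interval. The Sp letters GGGGCGGGG turned, with 1.34% (0.769 to 2.17%) against 0.499% of windows and 0.910% (0.417 to 1.72%) against 1.72% at 50 to 60% GC. In members in no family, of any GC content, the Sp share was 2.18% (1.25 to 3.51%). The Ets letters CCGGAAGT also turned, with 0.419% against 0.172% and 0.303% (0.0626 to 0.884%) against 0.409%, an interval that holds the share of windows. The Sox core CATTGT was present in 7.21% (5.81 to 8.83%) and in 18.1% of windows. At 50 to 60% GC it was 7.48% (5.92 to 9.30%) against 10.9%, still lower in members. Tcf/Lef letters also remained lower at 50 to 60% GC, with 2.02% (1.24 to 3.11%) against 3.52%. AP-1 letters TGANTCA (5.70%, 4.45 to 7.17%, against 8.82%), the Esrrb letters TCAAGGTCA (1.09%, against 0.720%), the Stat letters TTCCNGGAA (0.587%, against 0.797%) and CTCF (0.922%, against 0.857%) differed less from all windows, although CTCF stood in 1.11% (0.556 to 1.98%) of members and 1.66% of windows at 50 to 60% GC. A match of letters does not show that a factor was bound.

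**Figure D5:**
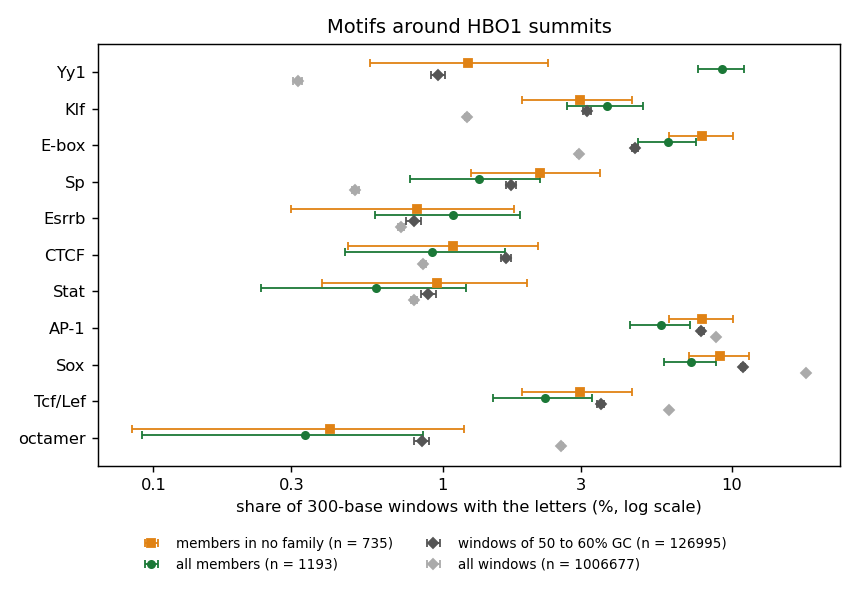
Share of 300-base windows that hold the letters of each motif (horizontal axis, %, log scale) in members in no family, all members, windows of 50 to 60% GC and all windows, with exact binomial 95% intervals. Yy1 lies at 9.22% in all members but at 1.22% in members in no family, and the octamer lies below the all-window share of 2.57%.

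Genes of the pluripotency network had members near them. A member lay within 10 kb of 485 of the 20722 coding genes as their nearest coding gene, or 2.34%. Of 18 naive pluripotency genes on these chromosomes, 5 had such a member, and 13 had a peak at a coding TSS, against 21.6% of all coding genes. Of 17 general pluripotency genes, 3 had a member and 10 a peak at the TSS. For 16 genes of primed or early lineage cells the counts were 0 and 3, and for 15 genes of the two-cell stage and germline they were 0 and 0. Of 9 genes for subunits of HBO1 complexes, 1 had a member and 5 a TSS peak, of 21 Wnt pathway genes 2 and 9, and of 18 genes of ERK signalling and feedback 2 and 7. Of 10 genes that the study names for their MOREs, 0 had a member as its nearest coding gene and 4 had a peak at a TSS. One of them, Blcap, was the gene with the nearest start of any transcript for the member at chr2:157554467-157554748, 5259 bp away with a fold enrichment of 5.49, but the nearest coding TSS there was that of Nnat at 5330 bp. Blcap was named after its value had been seen. These lists were chosen with earlier results of these data known and were not tested.

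At Nanog, which encodes a homeodomain factor of the pluripotent state, the member at chr6:122705682-122706252 lay 1237 bp upstream of the TSS. It had a fold enrichment of 3.40 with a −log10 q of 12.2, and 52 input read ends. A Sox core lay within 150 bp of its summit, outside the bases shown above. Klf2, a zinc finger factor of naive cells, had a member 5378 bp downstream of its TSS at chr8:72324411-72325077, with an enrichment of 4.94 and 9.22 for −log10 q. Fgf4, the growth factor whose signal drives exit from the naive state, had a member at chr7:144867398-144867825, 6012 bp downstream, with 5.29. Tfcp2l1, a factor downstream of LIF and Wnt signals, had a member 4774 bp upstream at chr1:118622816-118623171, also with 5.29. These 4 genes had a separate HBO1 peak at the TSS, while Fbxo15, the other naive gene with a member, had none.

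The 3 members of the general list had fold enrichments from 6.02 to 7.04. Nodal, a ligand of the TGF-beta family, had a member 8116 bp downstream of its TSS at chr10:61426088-61426639, with an enrichment of 6.02, a −log10 q of 9.78 and no input read end in the 1 kb around it. It held both the E-box and a Sox core. Lin28a, an RNA-binding protein that blocks let-7 maturation, had a member 4990 bp upstream at chr4:134023831-134024139, with 6.29 and a −log10 q of 9.52. Its TSS had no HBO1 peak, while that of Nodal did. A member 7231 bp from the TSS of L1td1, which encodes an RNA-binding protein of ESCs, had 7.04 with a −log10 q of 10.8 and lay downstream at chr4:98740434-98740754. The last member of the naive list, near Fbxo15, lay 5557 bp upstream of its TSS at 5.79, belonged to family 5, and was among the few with a GC content under 45%, at 43.0%.

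Some listed genes were the nearest coding gene of a member that lay farther than 10 kb from their TSS, beside another gene. These were Lefty2 at 14074 bp (5.29), Zfp281 at 53098 bp (9.32, in family 5), Klf4 at 53125 bp (3.62) and a second member of Tfcp2l1 at 188482 bp (5.18), with fold enrichments in parentheses.

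In the Wnt pathway, Tcf7l1, the repressor that binds Wnt target genes in ESCs, had a member 5628 bp upstream at chr6:72794882-72795493 with a fold enrichment of 5.30 and no peak at its TSS. Notum, a secreted enzyme that inactivates Wnt proteins, had one 4301 bp upstream with 3.84 and a peak at its TSS. Tcf7l2 was the nearest coding gene of another member only at 116434 bp. Of the ERK genes, Spry2, a feedback inhibitor, had a member 1707 bp upstream at chr14:105898526-105899115 with 3.22, a −log10 q of 11.2 and 25 CpG dinucleotides in the 300 bases around its summit. A second member beside Gm48970, 30234 bp from the TSS of Spry2, had 7.52, and Spry4 was nearest to a member at 17190 bp with 3.36. Among the genes for HBO1 complexes, Meaf6 had a member 8769 bp upstream with 4.73 and no peak at its TSS.

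The most enriched members lay near genes of several kinds. The highest, at 17.5-fold with 76.6 for −log10 q, lay at chr4:145781454-145782010 near the pseudogene Vmn2r-ps15, where 2 of 16 input read ends had a mapping quality of at least 20. The next, at chr19:5794790-5795245 with 16.4 and 39.9, lay past the end of Malat1, a long nuclear RNA, 1707 bp from the nearest annotated start and 1092 bp from the next peak. Behind it came the family 5 member at chr2:144247578-144248367 near Snx5, a sorting nexin, with 15.7. Hnrnpa3, an RNA-binding protein, had a member 7102 bp downstream of its TSS with 13.7. Rps24, a protein of the small ribosomal subunit, had 10.7 in a member of 1088 bp that lay 7741 bp downstream of the nearest start. The others of the top 10 lay near Zfp986 (11.8), Gm21978 (11.7), AI838599 (10.2), Ankrd7 (9.57, in family 1) and Gm29284 (9.54). Except at Vmn2r-ps15 and Zfp986, with 16 and 17, the 1 kb around these 10 summits held 10 or fewer input read ends. The members near Vmn2r-ps15, Zfp986 and Gm21978 lay in 1 cluster on chromosome 4. All of them held agctggtcctgtca around the summit, although none was in a family.

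Ranked by −log10 q the leading members were different. The highest value of all, 571, belonged to the member at chr15:75086563-75087000 near Gm28502, where the input held 2364 read ends in 1 kb, the most of any member, and the fold enrichment was 3.68. The member at chr16:3351095-3351460 near Gm22862 had a −log10 q of 77.2 with a fold enrichment of 2.95 and 632 input read ends. The one near Olfr928-ps1 had 45.2 with 4.68 and 94 read ends, 6 of them with a mapping quality of at least 20. The one near Gm21112 on chromosome 8 had 72.5 with 8.60 and 15 read ends, 4 of them at that mapping quality. Vmn2r-ps15 was the only member among the leaders of both rankings.

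Members also gathered in a few places, which were picked after the values had been seen. They fell into 734 windows of 1 Mb, 460 of which held 1 member, and 17 windows with at least 5 members held 113. On chromosome 8, 21 members lay within 1.25 Mb from 19702529 to 20948704, and 18 of them belonged to 9 families. Of these families, 6 had no member elsewhere, such as the pair near Gm7760 and Gm21112 with fold enrichments of 7.16 and 8.60. Fold enrichment there ran from 2.01 to 8.60, and 59.2% of input read ends had a mapping quality of at least 20. Input was high there, with 10 to 240 read ends around each of the 21 summits, against a median of 9 over all members. On chromosome 4, 12 members lay from 145457200 to 145864481, among clustered zinc finger genes such as Zfp980, Zfp986 and Zfp990. They held a median fold enrichment of 7.07 and 3 of the 10 most enriched members. Only 32.4% of their input read ends had a mapping quality of at least 20, and 7 of the 12 had none.

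Among the 485 coding genes with a member within 10 kb, most had a single one. Of these genes, 42 had at least 2 and Cox8a, a subunit of cytochrome c oxidase, had 3, with fold enrichments of 3.67, 2.89 and 5.09. These genes were picked by this count after the values had been seen. Kat6b, another MYST acetyltransferase, had members at chr14:21477138-21477565 with 4.86 and a −log10 q of 20.3, and 1353 bp upstream of its TSS with 5.47. Mcl1, which protects cells from apoptosis, had 7.01 and 7.28 at 6009 and 6938 bp downstream, both in family 5. Fis1, which acts in mitochondrial fission, had 9.13 and 6.93 at 2571 and 1948 bp upstream, the first of them in family 5. Cdkn1a, the cell cycle inhibitor p21, had 2.87 and 2.92 at 9073 and 5300 bp from its TSS.

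Of the peaks within 25 bases of the limits of the rule, at most 3 on each side are given, as a description. Just inside the near limit lay members at Snord52, 1010 bp away with a fold enrichment of 8.83, and at Gm25008, 1019 bp away with 7.0, and just outside lay a peak at Acsm3, 994 bp away with 7.29. At the far limit, peaks at Tent2 (9993 bp, 3.00), Gm20040 (9988 bp, 6.19) and Adck5 (9982 bp, 1.94) were inside. Those at Zfp955b (10003 bp, 2.04), Gm25270 (10005 bp, 5.08) and Gm48527 (10008 bp, 7.27) were outside.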

How the data were processed

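HBO1 ChIP-seq peaks from 2 HBO1 ChIP samples and reads from 1 input sample were used. Paired reads were aligned to mm10 with Novoalign 4.03.01 and peaks were called with Macs2 at q 0.005 and max-gap 100. How the ChIP samples were combined, whether the input was the control for peak calling and how duplicate reads were treated are not given in the sources used here. In the deposited peak list, the fold enrichment (a ratio over local background) and the −log10 q are the authors' values, used without change. The deposited input lists 31973678 read ends by position, each with the aligner's mapping quality score, and no normalization was applied.

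Peaks were classed by summit and nearest edge against GENCODE vM21. Input read ends were counted by midpoint in the 1 kb around each summit. GC content, masked letters and motifs were read in 300 bases of GRCm38.p6 around each summit and in 300-base windows that tile the bases between genes 1 to 10 kb from a TSS. Families are sets of members joined by links, each between members that share at least 20 words of 20 bases. Shares have exact binomial 95% intervals, medians have intervals from order statistics, and counts per Mb have Poisson intervals. The share that a count of 0 allows is 3 over the number of members, which is lower than the upper end of the exact interval. With 1 peak list no test between groups was possible. Classes, motif scan, families and intervals were tested on simulated data. The classes of 1000 of 1000 simulated peaks, 3000 of 3000 planted motifs and 60 of 60 windows of planted families were recovered.

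The named regions were the 10 members with the highest fold enrichment, the 5 with the highest −log10 q, members whose nearest coding gene is on the naive pluripotency, general pluripotency or MORE gene list, members with a MORE or Oct:Sox site, up to 3 per other list, and those within 25 bases of the limits, at most 3 on each side. Other genes, such as those of the printed family sequences, of octamer members, of dense stretches and with several members, were named after their values were seen. The members and the gene lists were chosen with earlier results of these data known. The alternatives were other annotation, distance from the summit, stricter q limits, removal of high input, merging of neighbouring peaks, mapping quality, the whole peak for the octamer and, added after seeing the data, removal of members in a family. Repeat names were not analysed here, and a few members near single genes are not reported here. Python 3.11.15, numpy 2.4.6, scipy 1.17.1, pandas 2.3.3 and matplotlib 3.10.9 were used.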

Additional observations from a re-analysis of the deposited data

How the results depend on the processing

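The number of members was 1193 as reported. It was 683 with protein-coding genes alone, 220 when −log10 q had to reach 10, 671 without peaks with over 10 input read ends and 735 without members in a family, an alternative chosen after seeing the data. Those with a q limit, without high input and without families follow from fewer peaks by construction. Coding genes alone can also admit peaks, since noncoding gene bodies and starts no longer count. With coding genes alone the upstream share rose from 60.4% to 72.0% (of the bases, from 63.7% to 81.4%), the share with a peak at the nearest TSS from 14.2% to 32.7%, the octamer share from 0.335% to 0.878%, and the density ratio of 1 to 2 kb over 5 to 10 kb fell from 0.614 to 0.380. With limits of 5 and 10 for −log10 q the median fold enrichment was 5.30 and 5.80, and the share with a TSS peak was 17.1% and 22.7%. At 10 the median input was 15 and the octamer share was 0%. Without high input the median fold enrichment was 5.45, the median GC content 54.0% and the share with a TSS peak 11.8%. Input read ends of a mapping quality of at least 20 had a median of 7. Without members in a family, the share with a TSS peak was 16.5% and the median input was 8. The cause of these moves was not tested beyond construction. The direction of no value was reversed, and distance from the summit and merged neighbours moved none of the 8 values beyond their intervals or 1.5 times for the count. The upstream share was no longer below that of the bases, 63.7%, beyond its interval with distance from the summit, at either limit for −log10 q or without high input. No paired analysis was possible because the peak list used here holds no values per ChIP sample, and ChIP reads were not analysed here. Counting error limits shares over few members, such as the 4 with an octamer, and mapping limits members in families.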

Other observations

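The repeated sequences were not spread alike over the classes of peak. The word of family 2 stood around 58 of the 1193 summits between genes at 1 to 10 kb (4.86%), 18 of 5368 summits within 1 kb of a TSS (0.335%) and 116 of 640 summits between genes at over 50 kb (18.1%). The words of families 1, 3, 4, 6 and 9 showed the same order, with 6.72% of summits at over 50 kb for families 1 and 3. The words of families 5, 7 and 8 differed beyond 10 kb. That of family 5 stood around 12 summits within 1 kb of a TSS (0.224%), 23 at 1 to 10 kb (1.93%), 7 of 1616 at 10 to 50 kb (0.433%) and 1 of 640 at over 50 kb (0.156%). Those of families 7 and 8 each stood around 0.838% of summits at 1 to 10 kb. At 10 to 50 kb they stood around 0.619% and 0.371%, and at over 50 kb around 0% and 0.156%. These shares were not tested against each other, and family words were chosen from the members at 1 to 10 kb.

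Per 10000 windows of 300 bases, chromosomes held between 7.60 members (chromosome 3, without the segment left out) and 16.5 (chromosome 4). Chromosome 17 held 16.4 and chromosome 12 held 8.38.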
